A study of Mus musculus with 17 samples.

Results

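The libraries described here are the 5 of wild-type (WT) mice that received the control peptide, out of 17 libraries of cortical microvessels in the series. They were chosen by their sample labels, WT for genotype and SC for treatment, and are called replicates 1 to 5. The other 12 libraries, from WT mice given the inhibitor and from APP mice given either peptide, were not compared with them. All mice of the series were 10 to 11 months old, and each received 10 mg/kg of a peptide intraperitoneally at intervals of 2 days for 2 weeks. For WT_SC the peptide was taken to be sgp91-ds-tat, the control for gp91-ds-tat, an inhibitor of the superoxide-producing enzyme NOX2. The mice were therefore treated mice, and no untreated animals enter the description. The labels do not say whether each library came from a separate animal, so the spread between libraries may be partly technical. The protocol text speaks of surgery and of ipsilateral cortices, although no sample label names an operation. The labels give the material as endothelium, pericytes and astrocytic endfeet.

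Brain microvessels are tubes of endothelial cells joined by tight junctions. They are wrapped in a basement membrane that encloses pericytes or, in arterioles and venules, smooth muscle cells, and are covered on the outside by astrocyte endfeet. The endothelium forms the blood-brain barrier, which blocks passage between cells and carries glucose, amino acids and other solutes through named transporters. Centrifugation through dextran pellets vessel fragments and leaves myelin and most free cells behind, and what remains attached to the vessels enters the RNA.

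The 7 marker genes of endothelium, pericytes, smooth muscle and astrocyte endfeet were all present in every library. Levels are compared between genes in TPM, which divides counts by the summed exon length of each gene and scales nuclear protein-coding genes to the same total in each library. Cldn5, the main claudin of brain endothelial tight junctions (chr16:18776847-18778262, GRCm38), was at 798, 1252, 1288, 1739 and 1209 TPM in replicates 1 to 5, a mean of 1257 ± 334 (SD, n = 5). Flt1, a receptor for vascular endothelial growth factor, averaged 602 ± 93.6 TPM (SD, n = 5), and the endothelial adhesion molecule Pecam1 averaged 276 ± 46.3 TPM (SD, n = 5). Replicate 4 was the highest library for each of these endothelial markers.

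Among mural markers, Rgs5, a regulator of G-protein signalling enriched in pericytes (chr1:169655501-169695813), was at 862, 953, 1184, 1269 and 865 TPM. Pdgfrb, the receptor through which endothelium recruits pericytes, averaged 203 ± 16.6 TPM (SD, n = 5), with the lowest library at 187 TPM and the highest at 227 TPM. Acta2, smooth muscle actin, was at 170, 119, 222, 280 and 150 TPM. Aqp4, the water channel of astrocyte endfeet, was at 80.5, 103, 101, 133 and 98.0 TPM. Pdgfrb thus varied least and Acta2 most among the mural markers. In bulk RNA, fewer cells of a type and less RNA per cell cannot be told apart, here and for every cell type below.

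**Figure D1:**
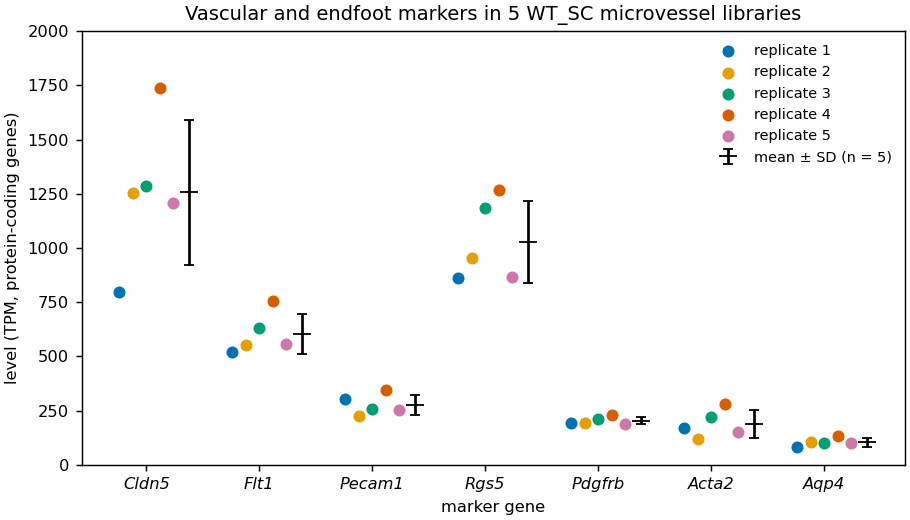
Level (TPM over nuclear protein-coding genes) of the 7 markers in each of the 5 WT_SC libraries (coloured points), with the mean and SD of 5 libraries in black. Cldn5 ranges from 798 to 1739 TPM, and replicate 4 is the highest library for every marker.

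The transcript with the highest mean level was Ttr, which encodes transthyretin, the thyroid hormone carrier secreted by choroid plexus epithelium. It was at 57.7, 856, 22667, 40000 and 12269 TPM in replicates 1 to 5 and ranked from place 1 to place 4835. Its place at the head of the order is therefore a property of 3 libraries. The second was Ptgds, prostaglandin D synthase of leptomeninges and oligodendrocytes (chr2:25466709-25470046), at 8037, 3364, 3883, 7390 and 3414 TPM. The third was Bsg, the membrane glycoprotein basigin of barrier endothelium (chr10:79704491-79711969), at 2225, 3403, 3888, 5171 and 3434 TPM. These 2 genes held places 1 to 13 in every library.

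The genes that followed came from several cell types. Spock2, a proteoglycan named here as a capillary endothelial marker, averaged 2449 ± 317 TPM (SD, n = 5). The matricellular gene Sparcl1 averaged 2440 ± 540 TPM, glutamine synthetase Glul of astrocytes 1788 ± 294 TPM and the lipid carrier Apoe of astrocytes 1720 ± 363 TPM (SD, n = 5). Neurons were represented by Clstn1, a cargo adaptor of axonal transport, at 1841 ± 209 TPM (SD, n = 5). Aplp1, an amyloid precursor-like protein gene, averaged 1964 ± 564 TPM, and Snhg11, a host gene of small nucleolar RNAs that the annotation lists as protein coding, averaged 2737 ± 500 TPM (SD, n = 5). Others were the lysosomal gene Psap at 2840 ± 319 TPM, the pump subunit Atp1b1 at 2767 ± 281 TPM, beta-actin Actb at 2212 ± 366 TPM and B2m, the light chain of MHC class I, at 2094 ± 807 TPM (SD, n = 5). The 10 most abundant genes of a library held 2.62% to 7.17% of all TPM, the leading 100 held 11.2% to 16.2% and the leading 1000 held 36.1% to 40.3%.

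Endothelial lists stood high in this order. Of 14642 protein-coding genes with at least 3 counts in every library, the median level was 38.5 TPM and the most abundant 10% began at 140 TPM. All 20 pan-endothelial genes were detected, 20 lay above that median and 11 lay in the top 10%. Taken as the median of the 20 members in each library, the level was 171 ± 30.9 TPM (SD, n = 5). Podxl, a sialomucin of the luminal surface, averaged 562 ± 95.7 TPM (SD, n = 5) and followed Cldn5 and Flt1 within the list. Of the 20 barrier transporters and enzymes, 18 lay above the median and 12 in the top 10%, and the list median was 272 ± 34.0 TPM (SD, n = 5). Slc2a1, the glucose transporter GLUT1 of the barrier, was at 2794, 1052, 1170, 1541 and 1174 TPM, highest in replicate 1. Ly6c1, a surface antigen of brain endothelium, averaged 1109 ± 277 TPM (SD, n = 5), but 32.8% of its 50-base stretches also occur in other genes, mainly Ly6c2, so its count is less certain.

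Tight junction genes other than Cldn5 were lower. The 13 members had a median of 67.2 ± 8.64 TPM (SD, n = 5), with 12 detected in every library and 3 in the top 10%. The scaffold gene Tjp1 averaged 407 ± 57.0 TPM, the cingulin-like gene Cgnl1 182 ± 87.0 TPM and the junctional adhesion gene Jam2 151 ± 17.2 TPM (SD, n = 5). Cgnl1 was at 129, 104, 222, 316 and 139 TPM, so replicates 3 and 4 stood above the other 3 libraries.

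Genes of the arterial, capillary and venous segments were present, with 14 of 14, 10 of 10 and 10 of 12 members detected in every library. The venous members not detected throughout were the selectins Selp and Sele. The capillary list had the highest median, 200 ± 26.7 TPM (SD, n = 5), against 69.7 ± 13.7 TPM for the arterial and 68.3 ± 4.94 TPM for the venous list (SD, n = 5). In every library the capillary median was the highest of the 3, while the arterial and venous medians overlapped. Cxcl12, a chemokine of capillary and arterial endothelium, averaged 451 ± 130 TPM, and Car4, a carbonic anhydrase of capillary endothelium, 252 ± 35.6 TPM (SD, n = 5). The leading arterial genes were Mgp, an inhibitor of vascular calcification, at 467 ± 134 TPM, the semaphorin Sema3g at 146 ± 38.8 TPM and the ephrin Efnb2 at 131 ± 7.43 TPM (SD, n = 5). The leading venous genes were Vwf, von Willebrand factor, at 203 ± 50.1 TPM, and Ackr1, a chemokine-binding receptor of venules, at 138 ± 42.1 TPM (SD, n = 5).

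The third venous gene, Lcn2, was not stable. Lcn2 encodes the iron-scavenging protein lipocalin 2, which is induced in endothelium and astrocytes in inflammation, and it was at 140, 133, 5.75, 1.53 and 318 TPM. Replicates 1, 2 and 5 stood far above replicates 3 and 4.

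Mural, fibroblast and matrix genes followed. The 16 pericyte genes were all detected, with a median of 81.3 ± 2.97 TPM (SD, n = 5). This median had the smallest spread relative to its level among the vascular lists, while the summed level ranged from 2927 to 3889 TPM. Vtn, the matrix protein vitronectin of pericytes, averaged 1011 ± 136 TPM (SD, n = 5) beside Rgs5. The 15 smooth muscle genes had a median of 34.8 ± 3.98 TPM (SD, n = 5), led by the myosin light chain Myl9 at 297, 174, 217, 333 and 196 TPM, Acta2 and Tagln, an actin-binding protein, at 105 ± 33.6 TPM (SD, n = 5). The 15 perivascular fibroblast genes had a median of 30.04 ± 8.73 TPM (SD, n = 5). Their leading member Igf2, a growth factor, was at 802, 271, 619, 1006 and 382 TPM, followed by Aebp1, a collagen-binding protein, at 110 ± 40.3 TPM and the GABA and taurine transporter Slc6a13 at 105 ± 24.7 TPM (SD, n = 5). The 14 basement membrane genes had a median of 85.9 ± 23.0 TPM, led by Sparc at 387 ± 68.8 TPM, agrin (Agrn) at 322 ± 53.8 TPM and the collagen IV chain Col4a1 at 210 ± 19.3 TPM (SD, n = 5).

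Astrocyte genes were at similar levels. The 10 endfoot genes had a median of 118 ± 13.8 TPM (SD, n = 5), led by dystroglycan (Dag1), which anchors endfeet to the basement membrane, at 267 ± 38.1 TPM (SD, n = 5). Gpr37l1, a receptor of astrocytes, averaged 228 ± 30.8 TPM, and Hepacam, an adhesion molecule of endfeet, was at 329, 177, 153, 115 and 131 TPM. The 14 genes of astrocyte bodies and processes had a median of 99.7 ± 12.8 TPM (SD, n = 5). The glutamate transporter Slc1a2 averaged 1447 ± 94.2 TPM and the glutamate transporter Slc1a3 247 ± 24.8 TPM (SD, n = 5). Medians of the endfoot and cell-body lists overlapped between libraries.

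Genes of cells that the label does not name were found at levels that overlapped those of endothelial genes. The 14 pan-neuronal genes were all detected, 12 lay above the median of detected genes and 8 in the top 10%, and their median was 169 ± 20.0 TPM (SD, n = 5). The synaptic vesicle genes Syt1 and Syp averaged 1600 ± 246 and 1265 ± 270 TPM, and the NMDA receptor subunit Grin1 552 ± 83.6 TPM (SD, n = 5). The pan-endothelial median divided by the pan-neuronal median was 0.731, 0.897, 1.07, 1.56 and 0.961 in replicates 1 to 5, a mean of 1.04 ± 0.313 (SD, n = 5). The ratio was above 1 in replicates 3 and 4 and below 1 in the other 3 libraries. No library of whole cortex was among those used here, so the enrichment of vessels over the starting tissue was not measured.

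Both neuron classes contributed. The 12 excitatory genes had a median of 74.1 ± 11.1 TPM (SD, n = 5), led by the vesicular glutamate transporter Slc17a7 at 950 ± 136 TPM, neurogranin (Nrgn) at 644 ± 162 TPM and the AMPA receptor subunit Gria2 at 621 ± 134 TPM. The 10 inhibitory genes had a median of 101 ± 13.01 TPM (SD, n = 5). The neuropeptide gene Sst was at 1913, 834, 781, 488 and 527 TPM and the neuropeptide gene Npy at 841, 680, 528, 369 and 460 TPM, and replicate 1 was highest for both. Lamp5, a membrane protein of interneurons, averaged 222 ± 30.6 TPM (SD, n = 5).

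Oligodendrocyte genes were high. The 14 myelin genes had a median of 144 ± 20.9 TPM (SD, n = 5), with the claudin Cldn11 at 538 ± 213 TPM and myelin basic protein (Mbp) at 473 ± 127 TPM (SD, n = 5). The 10 precursor genes had a median of 53.7 ± 12.05 TPM, led by the matrix glycoprotein Tnr at 206 ± 31.8 TPM, the transcription factor Olig1 at 97.8 ± 21.1 TPM and the growth factor receptor Pdgfra at 71.6 ± 6.72 TPM (SD, n = 5).

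Resident immune cells were present at lower levels and blood cells near the floor. The 15 microglial genes were all detected, with a median of 42.5 ± 3.06 TPM (SD, n = 5), with the complement genes C1qa at 147 ± 24.2 TPM and C1qb at 145 ± 44.8 TPM (SD, n = 5). The 10 perivascular macrophage genes had a median of 10.2 ± 2.59 TPM, led by the scavenger receptor Stab1 at 56.7 ± 18.3 TPM, the mannose receptor Mrc1 at 34.5 ± 8.58 TPM and the chemokine Pf4 at 19.3 ± 7.67 TPM (SD, n = 5). Summed microglial levels stayed within 924 to 1144 TPM over the 5 libraries.

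The title of the series names neutrophils, and neutrophil genes were scarce in these 5 libraries. Of 14 genes, 7 were detected in every library, 0 lay above the median of detected genes, and the list median was 1.14 ± 0.420 TPM (SD, n = 5). Elane, Ly6g and Camp, a protease, a surface marker and an antimicrobial peptide of neutrophils, had 0 counts in all 5 libraries, where a count of 0 allows a level of up to 0.174 to 0.314 CPM, which is counts scaled to the library size. S100a8, a calcium-binding protein of neutrophils, was read by 14, 13, 13, 6 and 9 counts. The most abundant member, the growth factor receptor Csf3r, averaged 23.2 ± 2.87 TPM (SD, n = 5), and microglia express it too.

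Other blood lineages were as low. The lymphocyte list had a median of 0.554 ± 0.492 TPM (SD, n = 5) over 13 genes, led by Cd4, a T cell co-receptor that some myeloid cells also express, at 4.11 ± 0.655 TPM, and Cd3g had 0 counts. The 10 monocyte and dendritic cell genes had a median of 1.04 ± 0.193 TPM, led by the receptor Flt3 at 26.2 ± 5.78 TPM (SD, n = 5). Of the 9 platelet genes 5 were detected in every library, and Ppbp, a platelet chemokine, was at 2.08, 5.70, 10.6, 64.7 and 21.4 TPM. Hbb-bs, a beta globin, was at 4.41, 10.1, 39.3, 36.6 and 48.3 TPM, and Alas2, the erythroid haem synthesis enzyme, at 1.10, 14.8, 23.0, 18.9 and 31.8 TPM. Replicate 1 was thus lowest for both erythroid genes. Of the 50-base stretches of Hbb-bs, 53.2% also occur in another gene, mainly Hbb-bt, so its count is less certain. Rhag, Hba-a1 and Hba-a2 had 0 counts, and 72.3% and 89.3% of the 50-base stretches of Hba-a1 and Hba-a2 occur in another gene, so their 0 does not measure the transcript.

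The catalytic transcript of the enzyme named in the study was low, and protein was not measured. Cybb, the catalytic subunit of NOX2, was at 5.31, 4.39, 7.04, 8.60 and 4.92 TPM, a mean of 6.05 ± 1.74 (SD, n = 5). Its membrane partner Cyba averaged 46.6 ± 13.3 TPM, the cytosolic subunit Ncf1 11.1 ± 2.60 TPM and the small GTPase Rac1, which has many other roles, 249 ± 38.4 TPM (SD, n = 5). Of the other catalytic genes, Nox1 and Nox4 were lower still, at 2.00 ± 1.28 and 0.264 ± 0.0865 TPM (SD, n = 5). Of the 14 subunit genes, 9 were detected in every library and 2 lay above the median of detected genes. Genes listed for leukocyte adhesion by endothelium were higher, with a list median of 97.0 ± 14.2 TPM (SD, n = 5). Cd47, a signal against phagocytosis, led at 431 ± 40.6 TPM, followed by the adhesion molecules Alcam at 277 ± 13.995 TPM and Cd34 at 177 ± 8.33 TPM (SD, n = 5). The summed level of the list differed by 1.06-fold between the lowest and the highest library. Its members did not share 1 order. Cd47 was highest in replicate 1 and lowest in replicate 4, while replicate 4 was the highest library for 5 of the 8 kept members. Which cell types the list came from was not tested.

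The immediate early and heat shock lists were well expressed by their medians and the division list was not. Whether these levels reflect a stress response was not tested. The 17 immediate early genes had a median of 88.3 ± 25.6 TPM, with the shear-responsive factor Klf2 at 412, 120, 183, 381 and 126 TPM. The 11 heat shock genes had a median of 62.6 ± 5.86 TPM, led by the chaperones Hsp90ab1 at 640 ± 94.1 TPM and Hspa8 at 599 ± 155 TPM (SD, n = 5). The 12 division genes had a median of 1.23 ± 0.166 TPM (SD, n = 5), and 0 of them lay above the median of detected genes.

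**Figure D2:**
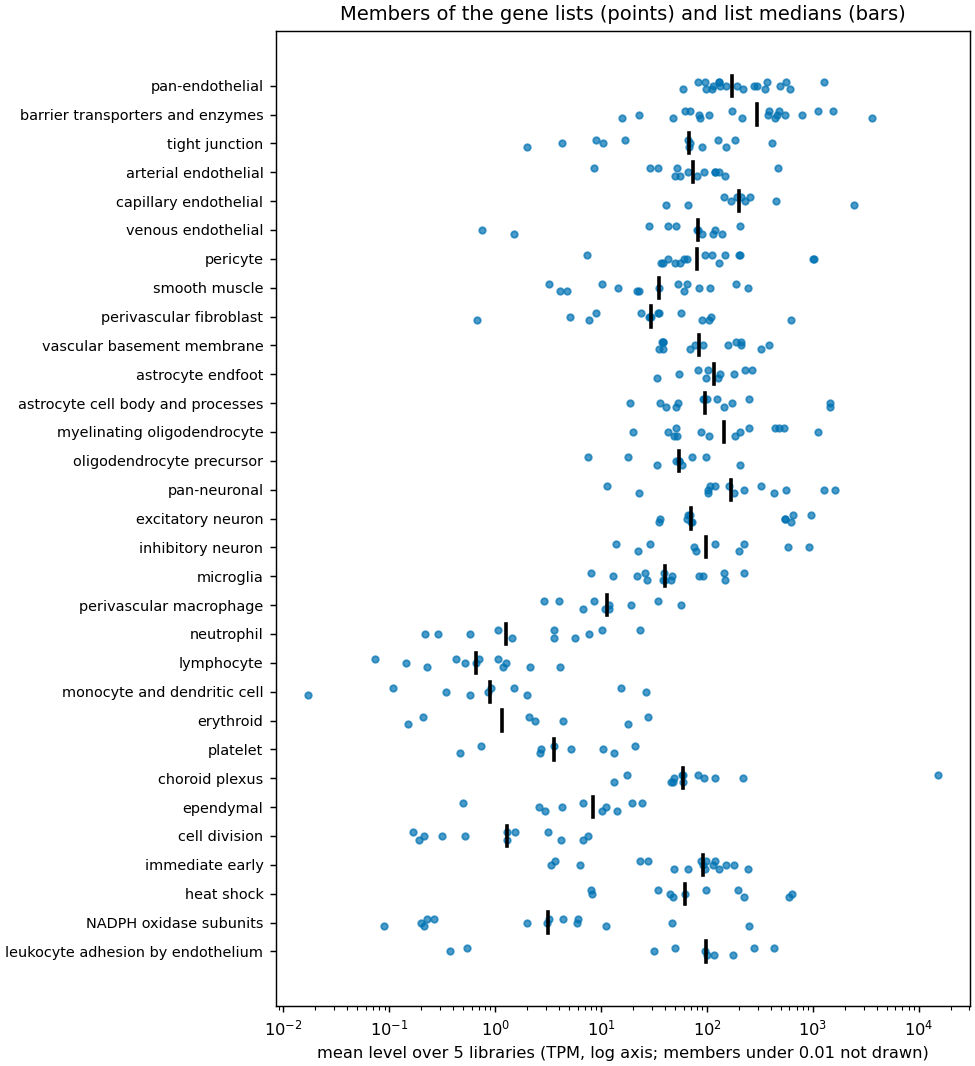
Mean level over 5 libraries (TPM, log axis) of each member of 31 gene lists (points), with the median of the members' means as a bar. Endothelial, astrocyte, oligodendrocyte and neuronal lists overlap around 100 TPM, and the blood cell and division lists lie below.

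Most genes were steady between libraries. Over 16036 genes kept by a filter on low counts, the biological coefficient of variation, which is the relative spread beyond counting error, had a median of 0.162. The ratio of the highest to the lowest of 5 libraries had a median of 1.44, and it was at least 2 in 2197 genes, 13.7% of those kept. This share was 33.1% for genes under 5 CPM and 5.66% for genes at 100 CPM or more. CPM is used from here on to compare a gene between libraries. The steadiest kept protein-coding genes of at least 50 CPM were Clock, a circadian transcription factor, with a ratio of 1.01, Nr3c2, the mineralocorticoid receptor, with 1.02, and Rpgrip1l, Gak and Stk25, genes of the cilium, of vesicle uncoating and of a kinase, with 1.03, 1.03 and 1.04. They were picked as the smallest ratios among many genes.

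Lists differed in how many members reached a ratio of 2. Of all kept genes 13.7% reached it, but 7.22% of those at 20 to 100 CPM and 5.66% of those at 100 CPM or more. The share in the lists was 2 of 14 for pan-neuronal genes, 1 of 10 for endfoot genes and 1 of 12 for excitatory genes. It was 5 of 20 for pan-endothelial genes, 4 of 16 for pericyte genes, 8 of 14 for smooth muscle genes, 11 of 14 for fibroblast genes, 8 of 9 for venous genes and 13 of 15 for immediate early genes. It was 7 of 7 for the choroid plexus genes that passed the filter, which removes genes near 0 in any library, and 13 choroid plexus genes were measured. No set was tested.

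Replicates 1 and 4 stood apart from the other 3 libraries. The first principal component held 42.9% of the variance and placed replicate 4 at one end, and the second held 35.03% and placed replicate 1 at one end. Of the 2197 genes, replicate 4 was the highest library for 829 and replicate 1 for 644, against 316, 125 and 283 for replicates 2, 3 and 5. At least 2-fold above every other library were 70 genes in replicate 1, 43 in replicate 4, 1 in replicate 5 (Slc12a3) and 0 in replicates 2 and 3. Without replicate 4 the number of genes with a ratio of at least 2 was 1224, and without replicate 1 it was 1389.

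**Figure D3:**
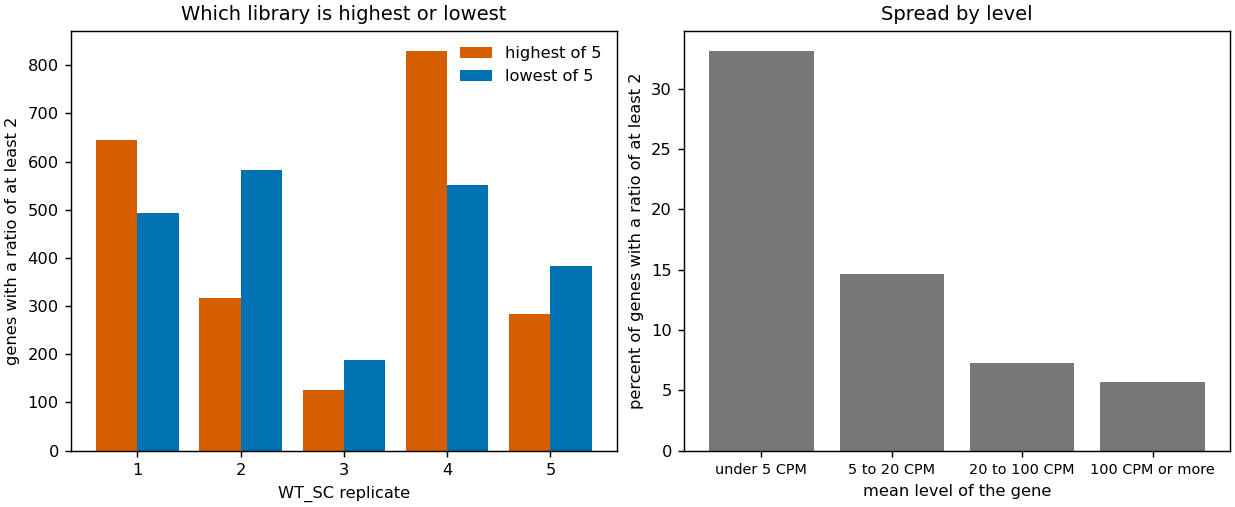
Left, number of genes with a highest to lowest ratio of at least 2 for which each WT_SC library is the highest or the lowest. Right, percent of kept genes with such a ratio by mean level in CPM. Replicate 4 is the highest library for 829 genes, and the share falls from 33.1% to 5.66% with level.

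Replicate 4 was high in most vascular lists and low in the neuronal and oligodendrocyte lists. Over all 16036 kept genes, replicate 4 was the highest library for 27.3% and the lowest for 27.7%, and replicate 1 the highest for 27.2%. Replicate 4 was the highest library for 18 of 20 pan-endothelial, 13 of 14 arterial, 9 of 10 capillary, 14 of 14 basement membrane and 14 of 14 kept fibroblast genes. It was the lowest for 9 of 14 myelin, 7 of 14 pan-neuronal and 7 of 12 excitatory genes. Its summed pan-endothelial level was 7452 TPM, against 4714 to 5982 TPM in the other libraries, and its summed pan-neuronal level was 4152 TPM, against 4981 to 6149 TPM. The mural and venous lists were less uniform. Replicate 4 was highest for 9 and replicate 1 for 7 of 16 pericyte genes, and for 7 and 5 of 14 kept smooth muscle genes. Replicate 4 had the highest summed level of both lists but the lowest list median of the 5 libraries, 78.6 TPM for pericyte and 31.03 TPM for smooth muscle genes. The summed venous level was 1060, 778, 777, 967 and 1180 TPM, highest in replicate 5. That sum includes Lcn2, the unstable gene described above, which was low in replicate 4. Of the 9 kept venous genes, replicate 4 was the highest library for 5, replicate 1 for 4 and replicate 5 for 0. Replicate 1 was the highest library for 11 of 14 pan-neuronal, 10 of 12 excitatory and 11 of 15 microglial genes.

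**Figure D4:**
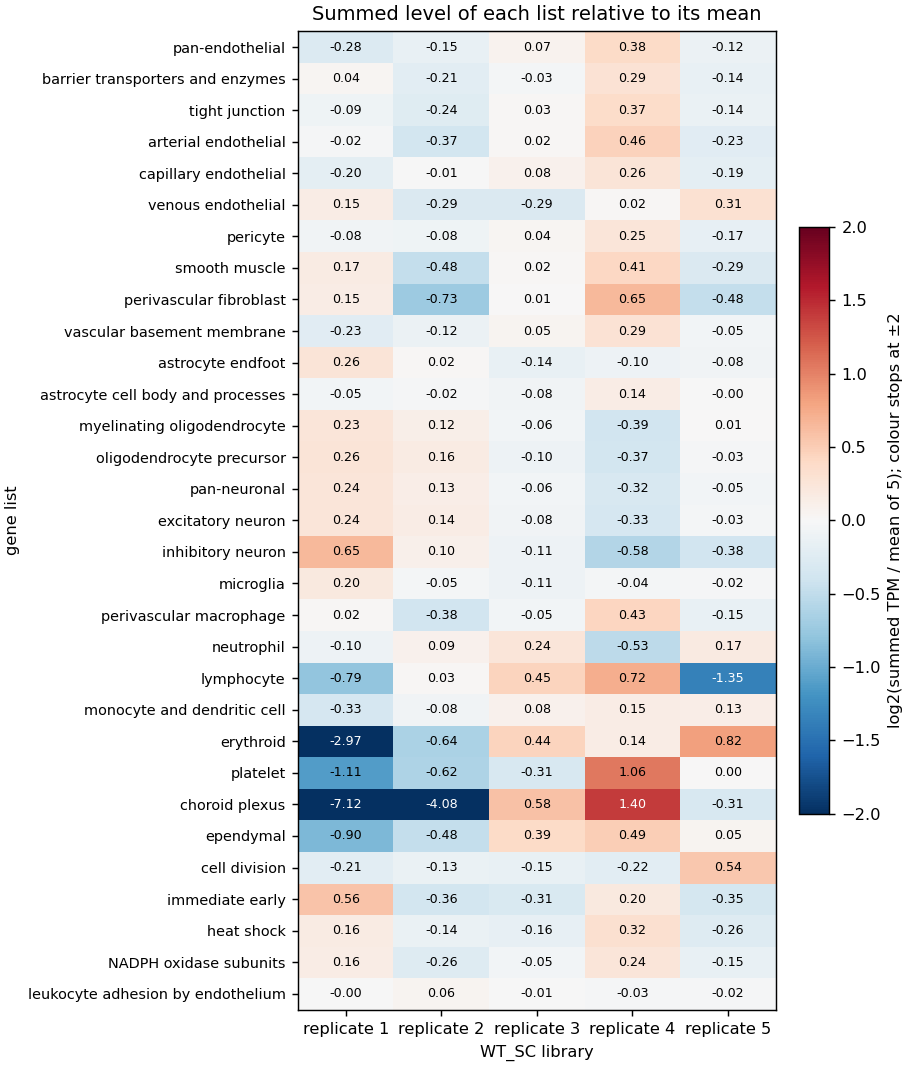
Summed TPM of each list in each WT_SC library as log2 of its ratio to the mean of the 5 libraries (numbers and colour; the colour stops at ±2). Replicate 4 is highest in the vascular rows other than the venous and leukocyte adhesion ones and lowest in the neuronal and oligodendrocyte rows, and the choroid plexus row is lowest in replicates 1 and 2. The venous row includes Lcn2, which was low in replicate 4.

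Of the 31 lists, choroid plexus genes had the largest ratio of summed levels between libraries, 365. The plexus is a secretory epithelium of the ventricles and no part of the cortex. In CPM, Ttr was at 10.6, 138, 3760, 7362 and 1962 in replicates 1 to 5, a ratio of 696 between the highest and the lowest. The chloride channel gene Clic6 was at 1.51, 4.40, 69.9, 124 and 36.9 CPM, a ratio of 82.0, and Kl, which encodes klotho, at 12.96, 16.6, 235, 429 and 113 CPM, a ratio of 33.1. The order was the same in these 3 genes: replicate 4 above 3 above 5, and replicates 1 and 2 far below.

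The same 3 libraries were high for the rest of the list. The prolactin receptor Prlr was at 7.496, 10.3, 138, 293 and 70.9 CPM, the potassium channel Kcnj13 at 4.18, 4.08, 61.8, 111 and 22.7 CPM, and the secreted antagonist Sostdc1 at 2.03, 1.78, 35.9, 67.8 and 14.1 CPM. Folate receptor Folr1, which the filter removed, was at 0.349, 1.68, 30.4, 51.9 and 14.7 CPM, and the transcription factor Otx2 of plexus epithelium was read by 5, 8, 114, 243 and 65 counts. Besides Ttr, the 12 other genes summed to 57.8, 89.0, 1294, 2219 and 630 TPM. The collagen gene Col8a2, at 2.96, 4.50, 22.8, 54.97 and 17.7 CPM, and the coagulation factor F5, at 8.95, 10.8, 100, 160 and 65.7 CPM, are also among the 10 largest ratios of kept protein-coding genes with a mean of at least 5 CPM. They are in no list and had the same high libraries. Ependymal genes, which line the ventricles, moved less, from 51.6 TPM in replicate 1 to 135 TPM in replicate 4 in sum.

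Replicate 1 was marked by other groups. Among immediate early genes it was the highest library for 12 of 15 kept members and replicate 4 for 3. Over all kept genes these shares were 27.2% and 27.3%. The 17 immediate early genes summed to 2199, 1157, 1202, 1706 and 1169 TPM in replicates 1 to 5. Plin4, a coat protein of lipid droplets, was at 171, 18.7, 12.7, 8.999 and 23.5 CPM, a ratio of 19.0, and Hif3a, a hypoxia-inducible factor subunit, at 118, 16.6, 17.5, 9.27 and 21.9 CPM, a ratio of 12.7. Both are known to be induced by glucocorticoids. A list of 14 glucocorticoid-induced genes was written after these values were seen and partly from the genes high in replicate 1, so that its counts are a description and support nothing. Replicate 1 was the highest library for all 14, and their summed level was 2706, 710, 770, 892 and 918 TPM.

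Within that list, Fkbp5, a co-chaperone of the glucocorticoid receptor, was at 65.9, 11.8, 11.2, 12.7 and 15.2 CPM. The kinase Sgk1 was at 279, 61.7, 75.0, 110 and 71.6 CPM, Tsc22d3, which encodes the leucine zipper protein GILZ, at 121, 31.1, 34.8, 56.0 and 42.4 CPM, and the clock gene Per1 at 267, 83.7, 129, 145 and 113 CPM. Replicates 2 to 5 lay close together for Fkbp5 and spread more widely for Per1. Replicate 1 also had the largest total, 17862965 counts against 9356110 to 11342154. The part of depth in these results was not tested.

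**Figure D5:**
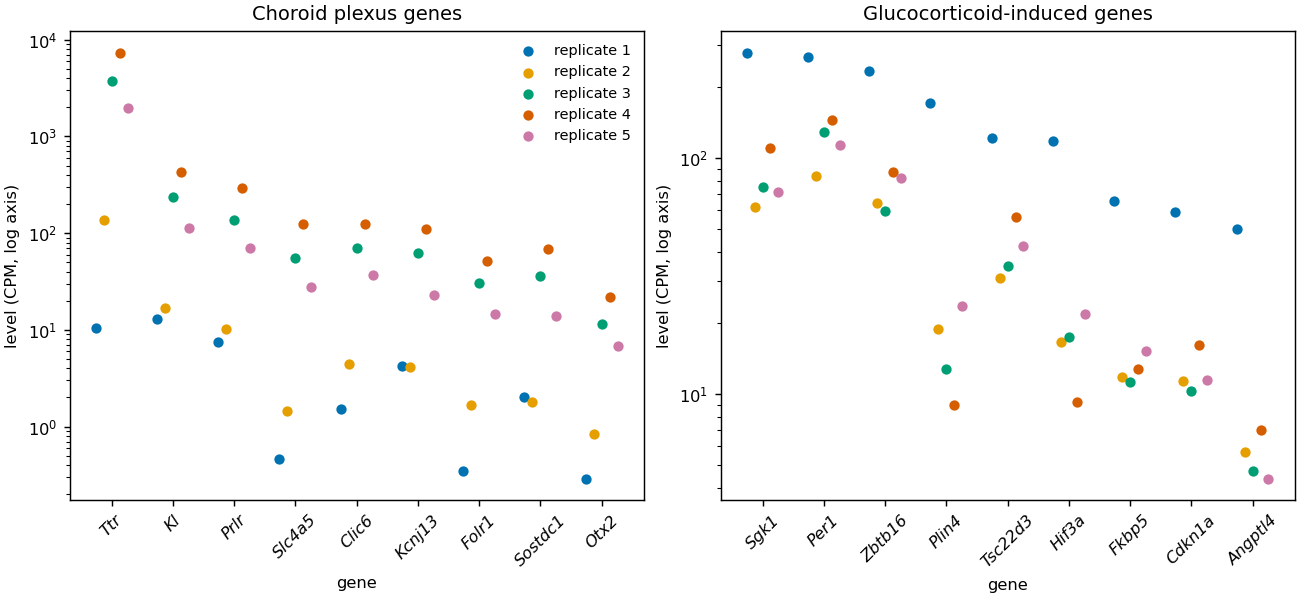
Level (CPM, log axis) of 9 choroid plexus genes (left) and 9 glucocorticoid-induced genes (right) in each WT_SC library (coloured points). Replicates 3, 4 and 5 lie above 1 and 2 for all 9 genes on the left, and replicate 1 lies highest for all 9 on the right.

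The glucocorticoid receptor binds a partly palindromic element, searched here as GNACA and its reverse complement TGTNC with 3 bases between them, in the 250 bases before each annotated start. Every motif was searched on both strands. It is the 1 of 9 motifs searched that is shown, chosen after all 9 had been looked at in these genes. It occurs in 0.387% of 32851 RefSeq promoters (GRCm38.p6). Of the 70 genes high in replicate 1, 50 had a promoter in the table and 4 held the motif (Fam107a, Kcna5, Map3k6 and Sgk1), against 119 of all 27025 genes. Of the 43 genes high in replicate 4, 29 had a promoter and 0 held it. With the motif in 0.44% of all genes, 29 genes are too few for this 0 to be a contrast. These 4 were seen among many comparisons, and a match is a description, not a site. Promoters of the 3 that are also in the list of glucocorticoid-induced genes are shown, so that the match can be read beside the levels, with the matches in capitals.
Sgk1, chr10:21993640-21993889, plus strand: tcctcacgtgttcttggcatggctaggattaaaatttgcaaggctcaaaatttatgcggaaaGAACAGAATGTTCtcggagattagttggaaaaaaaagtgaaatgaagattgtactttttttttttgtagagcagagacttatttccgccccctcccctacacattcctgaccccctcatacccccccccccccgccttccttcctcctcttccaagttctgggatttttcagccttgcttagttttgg
Map3k6, chr4:133240568-133240817, plus strand: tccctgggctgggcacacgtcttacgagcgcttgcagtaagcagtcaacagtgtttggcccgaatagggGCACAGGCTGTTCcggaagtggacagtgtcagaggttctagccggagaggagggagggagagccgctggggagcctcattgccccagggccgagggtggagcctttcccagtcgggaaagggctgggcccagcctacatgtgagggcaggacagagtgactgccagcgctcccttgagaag
Fam107a, chr14:8309778-8310027, minus strand: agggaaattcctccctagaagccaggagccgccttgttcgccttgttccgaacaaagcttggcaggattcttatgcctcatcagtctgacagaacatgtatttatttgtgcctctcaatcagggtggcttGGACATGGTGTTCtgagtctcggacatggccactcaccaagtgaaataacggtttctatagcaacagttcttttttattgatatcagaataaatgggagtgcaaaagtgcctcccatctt

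The matches begin 188 bases before the annotated start in Sgk1, 181 in Map3k6 and 120 in Fam107a. The genes behind them were at 279, 61.7, 75.0, 110 and 71.6 CPM (Sgk1), at 70.3, 12.99, 9.13, 15.9 and 16.9 CPM (Map3k6, a stress kinase) and at 339, 88.6, 103, 107 and 120 CPM (Fam107a, an actin-associated gene of astrocytes and neurons). The other 8 motifs gave no such display but were also unequal in places. The single site AGAACA, which the full palindrome contains, was in 12 of the 50 genes of replicate 1 and in 6 of 8 choroid plexus genes, against 18.2% of all genes, and the ETS core GGAAGT in 5 of 11 pan-endothelial genes, against 22.2%. The full palindrome, AGAACA and TGTTCT with 3 bases between them, was in 1 of the 50, Sgk1, and TAATCC, the Otx core, in 1 of 8 choroid plexus genes against 7.21% of all. A fixed form of the CArG box of smooth muscle promoters was in 0 of 12 smooth muscle genes, any CArG box in 1 of 12, its outer bases CC and GG with 6 bases between them in 11 of 12, and a longer ETS core with CC before it in 0 of 11 pan-endothelial genes.

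Replicate 4 was also high for MHC class II genes, another list written after the values were seen. The invariant chain Cd74 was at 6.39, 6.49, 9.34, 26.6 and 8.13 CPM, and the class II chains H2-Aa at 2.32, 3.04, 4.12, 10.3 and 4.69 CPM and H2-Eb1 at 1.28, 3.77, 4.52, 12.03 and 3.13 CPM. Replicate 4 was the highest library for all 6 kept members. It was at least 2-fold above all others also for Lars2, a mitochondrial leucyl-tRNA synthetase, at 16.8, 26.6, 23.3, 139 and 34.8 CPM, and for Gkn3, an arterial gene, at 4.07, 7.44, 14.5, 40.8 and 7.71 CPM.

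Transcripts of the sex chromosomes moved with these 2 libraries. The labels give no sex. Xist, the RNA of the inactive X chromosome, was at 10219, 593, 520, 6684 and 122 CPM. The Y-linked genes Eif2s3y, Kdm5d, Ddx3y and Uty had 0 to 3 counts in replicates 1 and 4 and 480 to 1094 counts in replicates 2, 3 and 5. Xist was lower but not absent in replicates 2, 3 and 5, so these held both kinds of transcript. The reason was not tested. Replicates 1 and 4, the 2 that stood apart, were thus the 2 without Y-linked transcripts above the floor, and the part of sex in the differences above cannot be told apart from what else differs between single libraries.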

How the data were processed

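RNA of cortical microvessels was sequenced after removal of ribosomal RNA, with strand-marked libraries per the labels' protocols. The file the authors deposited holds raw counts for 42687 Ensembl genes. The submitters' processing notes name cutadapt, STAR, HTSeq and DESeq2 and the builds GRCh37 and mm10, without roles, so how reads shared by several genes were counted is not given in the sources used here. In the table, 17 columns matched samples and 20 others matched none and were not used. IDs were named from GENCODE vM21 (GRCm38), with 42329 matched, and IDs without a symbol held 0.0737% of counts. Mitochondrial genes were not analysed here.

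CPM used TMM-scaled library sizes (edgeR 4.0.16, R 4.3.3) and TPM used summed exon lengths of 21759 protein-coding genes. Totals were 9356110 to 17862965 counts, and the floor of 3 counts was 0.174 to 0.314 CPM, for counting error only. The noncoding pair Gm26917 and Gm42418, taken here as linked to ribosomal RNA, held 9.18% to 14.3% of counts. Genes were kept with filterByExpr over the 5 libraries, log2 CPM used a prior count of 2, and dispersions came from an intercept-only design, a script tested on simulated data. No groups were compared and no p-value is given. All 10 pairs of libraries were compared. None was identical, and the chi-square per degree of freedom was 5.51 to 47.4, so no pair was taken as 1 library deposited again. Each was counted as 1 replicate, although this check cannot show that libraries came from separate animals.

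The 31 lists (402 genes) and the members were chosen with earlier results of these data known. The rule for named genes took the 15 with the highest mean TPM, 7 markers, the leading 3 of each list and members at 0, the 10 largest and 5 smallest ratios among kept protein-coding genes with means of at least 5 and 50 CPM, and Cybb. Some genes that the rule takes are not reported here. Other genes named, 3 further lists (glucocorticoid-induced, MHC class II, sex chromosome) and the motif shown were chosen after their values were seen, the motif from 9 searched by hand in several gene groups. The alternatives were other size factors (the DESeq2 method as implemented in edgeR) and dispersions (DESeq2 1.42.0), filters, lengths, the genes in the TPM total, and leaving out each library.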

Additional observations from a re-analysis of the deposited data

Results flagged for a closer look

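In 41 quantities of the 5 libraries (total counts, list scores as the mean log2 CPM of members, and marker genes), the gap between the end library and its neighbour was divided by the whole range. With 5 libraries a value above 0.710 was singled out, and chance does this in about 1 of 20 groups, or 2.05 of 41, where 3 were found. The value was 0.7665 for total counts, with replicate 1 the highest at 17862965. It was 0.7714 for the pan-neuronal score, with replicate 1 highest at 7.45 against 7.03 to 7.13 in the others. It was 0.7458 for log2 CPM of Aqp4, with replicate 4 highest at 7.01 against 6.28 to 6.47 in the others. The endfoot list did not follow Aqp4. Replicate 4 was the highest library for 2 of its 10 genes, Aqp4 among them, and replicate 1 for 6. The list summed to 1565, 1329, 1184, 1218 and 1241 TPM in replicates 1 to 5. Whether depth moves the pan-neuronal score was not tested.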

How the results depend on the processing

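The number of genes with a ratio of at least 2 was 9257 with no filter on low counts, which adds genes near 0, and 1313 among genes of at least 5 CPM on average, and leaving out each library in turn gave 1224 to 2078. The median coefficient of variation was 0.235 with no filter and 0.145 to 0.184 without single libraries. With all genes in the TPM total, where Gm26917 comes first, list medians fell because the total is shared with noncoding genes: 121 TPM for pan-endothelial, 119 for pan-neuronal, 83.0 for endfoot, 57.3 for pericyte, 29.96 for microglia and 24.4 for smooth muscle genes, and 9 of the 15 leading genes remained among the leading 15. With the longest transcript as length, they were 103 TPM for endfoot, 73.4 for pericyte and 32.7 for microglia genes. Leaving out replicate 4 moved the endothelial to neuronal ratio from 1.04 to 0.914, and leaving out replicate 1 moved it to 1.12. The choroid plexus median without single libraries was 34.8 TPM (without replicate 4) to 71.7 TPM (without replicate 1). Of 91 alternative values of these main results, 76 stayed close to the value reported. Close meant within the spread between libraries, within a standard error for the coefficient of variation, or near the value for counts of genes. List medians and the endothelial to neuronal ratio are means over libraries, so leaving out 1 library cannot move them beyond that spread. The ratio is also the same under any TPM total. The standard error of the coefficient of variation, 0.0304, was made from its values without single libraries, which could hardly lie beyond it. Such alternatives were bound or nearly bound to stay, so their part of the 76 does not measure how stable the results are. The order by median TPM and a total without Ttr were alternatives chosen after seeing the data, and the median kept all 15 leading genes. No paired analysis was possible because replicates are numbered in accession order and 1 group is described. Depth limits the blood cell lists, where many members had under 3 counts in at least 1 library.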
